A study of Saccharomyces cerevisiae with 4 samples.

Results

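The regions described are the 32 ends of the 16 nuclear chromosomes of budding yeast, each taken as the outermost 20 kb of the reference sequence (genome build R64). They were chosen by position alone, as every 50 bp bin whose coordinate lay within 20000 bp of the start or of the last bin of its chromosome. Together they held 12816 of the 241434 nuclear bins, or 5.31%, with 400 or 401 bins per end. Ends are called by chromosome number and arm, so that XVIR is the right end of chromosome XVI. The measurement was BrdU-IP-Seq, in which newly made DNA carrying the thymidine analogue BrdU is immunoprecipitated and sequenced. It was made in 2 libraries of a rif1Δ strain, in which a KanMx cassette replaces RIF1, and in 2 libraries of WT. Both strains descended from W303 and shared MATa, a bar1Δ deletion and the BrdU-Inc construct that lets yeast take up BrdU. Cells of both were held in G1 with 7.5 nM α-factor for 4 h at 23 °C, then released with 200 µg/mL pronase into medium with 400 µg/mL BrdU and hydroxyurea (0.2 in the labels, which give no unit) and collected after 45 min. The deposited table holds 1 column per strain, the authors' mean of both libraries, so no value below has a replicate error and no difference was tested.

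The last stretches of yeast chromosomes carry X elements, and many also carry Y′ elements, which encode the YRF1 helicases, followed by TG-rich telomeric repeats. Subtelomeric DNA is packaged by the Sir proteins, holds families of near-identical genes, and normally replicates late in S phase from origins that fire late or seldom. Rif1 binds telomeric repeats through Rap1, limits telomere lengthening, and brings the phosphatase Glc7 to origins, where it opposes the kinase that activates the replicative helicase. Hydroxyurea starves forks of nucleotides, so that BrdU accumulates near origins that fired early, while the checkpoint holds back late ones.

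Over all 241434 nuclear bins the mean signal was 12.1 in rif1Δ and 12.6 in WT. In the 228618 bins outside the ends it was 12.2 in rif1Δ and 13.1 in WT, with medians of 3.50 and 3.62. The deleted gene itself, RIF1 (chromosome II, 751356 to 757106), averaged 0.433 in rif1Δ, with 112 of its 115 bins at 1 or less, and 3.09 in WT, with 0 such bins. The DNA within 10 kb of either side of it had medians of 3.88 in rif1Δ and 3.12 in WT. A sequence that the strain lacks therefore reads close to the lowest values of the column, which were 0.25 in rif1Δ and 0.125 in WT. For that reason bins at 1 or less are given apart throughout. Whether they reflect absent sequence, unmapped sequence or absent BrdU was not tested.

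Signal at the ends was higher in rif1Δ. The mean over the 32 ends was 10.5 in rif1Δ and 4.41 in WT, but the medians over bins were 2.75 in rif1Δ and 2.62 in WT, so the excess sat in a minority of bins. By end, the 20 kb mean ran between 0.299 and 45.1 in rif1Δ (median 7.46), and between 0.286 and 11.4 in WT (median 3.62). The log2 ratio of these means, rif1Δ over WT with a pseudocount of 1 added to each, had a median of 0.63 and a range of -1.81 to 2.78. The median was 0.14 when each end was taken by its median bin and 0.23 with a pseudocount of 10. It was positive at 24 ends and negative at 8, or positive at 26 once rif1Δ was scaled to the WT mean outside the ends. Among the 24, IR, IVL, XIVR and XR were mostly low in both strains, over 398, 311, 301 and 279 bins. Over all 595 windows of 20 kb, ends included, 50.3% were positive. At 11 ends (34.4%) the ratio was above 1, that is, more than 2-fold higher in rif1Δ, against 9.92% of the 595 windows. Among the 563 internal windows alone the median was -0.0091 and 48 (8.53%) were above 1. Ratios below -1 were seen at XL and IXL.

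**Figure D1:**
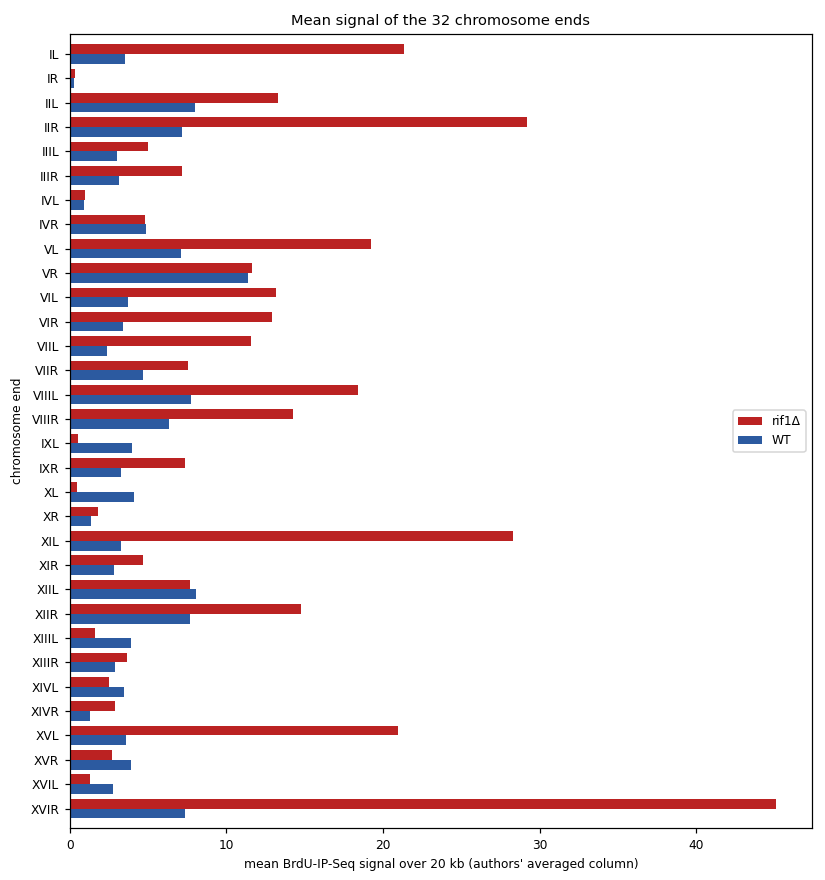
Mean BrdU-IP-Seq signal over the outermost 20 kb (horizontal axis, in units of the deposited signal) of each of the 32 ends (vertical axis), with rif1Δ in red above WT in blue. Bars are the authors' averaged columns and carry no error. The rif1Δ bars reach 45.1 at XVIR and 29.2 at IIR, while the highest WT bar is 11.4 at VR.

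Bins at 1 or less were crowded at the ends in both strains. There were 4911 in rif1Δ (38.3% of the bins there) and 3581 in WT (27.9%). Outside the ends the shares were 3.61% in rif1Δ and 2.21% in WT. The ends, with 5.31% of nuclear bins, thus held 37.3% of all such nuclear bins of rif1Δ and 41.5% of those of WT. At the ends 2834 bins (22.1%) were low in both columns, 2077 (16.2%) in rif1Δ only and 747 (5.83%) in WT only. Over all nuclear bins these shares were 2.45%, 3.01% and 1.13%. Outside the ends, too, more bins were low in rif1Δ only (5192) than in WT only (1986). Most of the low bins at the ends sat at the very lowest values. Of the 4911 rif1Δ bins 4389 were exactly 0.25, and of the 3581 WT bins 1428 were 0.125 and 1415 were 0.25. Low bins made up at least 50% of an end at 12 ends in rif1Δ and at 8 in WT, 7 of them common to both. No low bin was seen in either strain at IL, IIIR and VIR. In the 7158 bins that were above 1 in both strains (55.9% of the bins at the ends), the mean was 18.3 in rif1Δ and 5.95 in WT. Over such bins the log2 ratio was positive at 29 of 32 ends, the exceptions being XL, IXL and XIIIL, although this choice of bins leaves out those that were low in rif1Δ only.

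**Figure D2:**
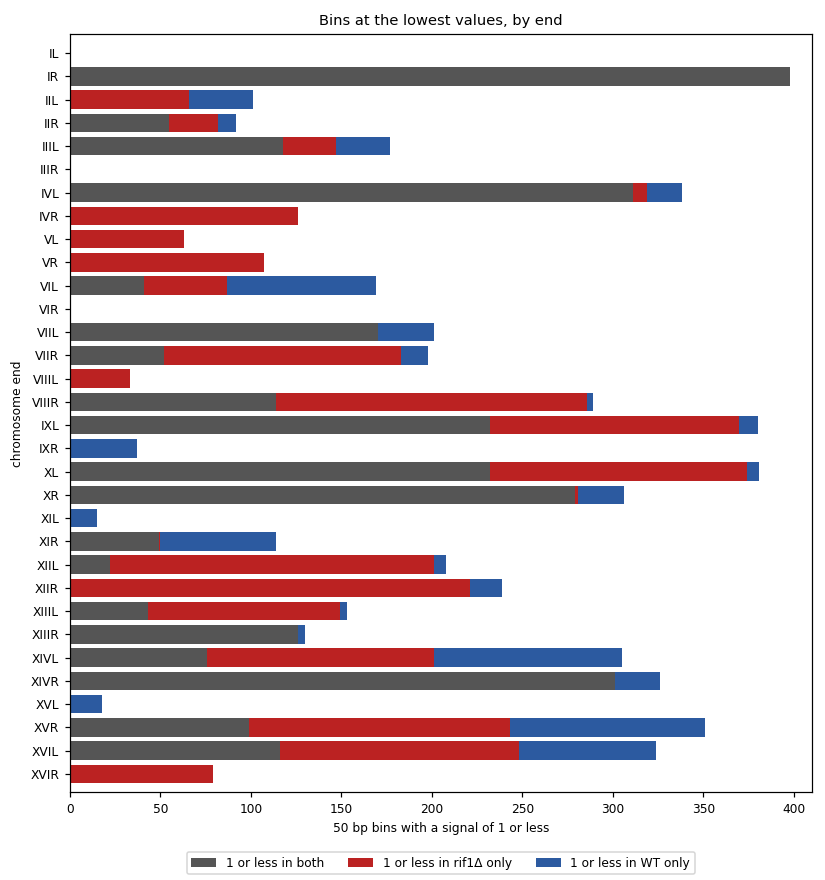
Number of 50 bp bins with a signal of 1 or less (horizontal axis, of 400 or 401 per end) at each end (vertical axis), split into bins low in both strains (grey), in rif1Δ only (red) and in WT only (blue). IR is almost wholly grey, with 398 of 401 bins low in both, while the red share is largest at XIIR, with 221 bins.

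The longest run of bins low in both strains, at IR, covered 19900 bp and included PHO11, an acid phosphatase gene. At IVL it was 15550 bp long, over COS7, the maltose permease gene MPH2, the sorbitol dehydrogenase gene SOR2, the hexose transporter gene HXT15 and THI13 of thiamine synthesis. Next came 13650 bp at XR, over THI11, HXT16, SOR1, MPH3 and COS5, and 13600 bp at XIVR, over PDR18, HXT17, MAN2 and AIF1. At IXL and at XL the run was 11600 bp long in each case, over VTH1 and the isomaltase gene IMA3 at IXL and over VTH2, IMA4 and HXT9 at XL. A run of 2050 bp at IIIL covered HMLALPHA1 and HMLALPHA2, silent copies of mating-type genes. The reference strain differs from W303, and the part of missing sequence or of read placement in these low runs was not tested.

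Runs that were low in 1 strain only fell in different places. The longest rif1Δ-only runs were 7100 bp at XL over YJL225C, 6900 bp at IXL over YIL177C, 7050 bp at XVR over YRF1-8 and 6600 bp at XVIL over YRF1-7. At 15 ends more than 50% of the bins in the outer 6 kb were low in rif1Δ alone, and no end had this in WT alone. The longest WT-only runs were 3850 bp at XIVL over COS1, 2950 bp at XVIL over the fluoride exporter gene FEX2, 2250 bp at VIL over SNZ3, THI5 and AAD6, and 2000 and 1800 bp at XVR over FEX1 with HSP33 and over YOR389W. In the run at XIVL the mean was 1.91 in rif1Δ and 0.279 in WT. Of the 2077 bins low in rif1Δ only, 1850 lay within 8 kb of an end.

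Distance from the end separated the strains. In the outermost 1 kb the median over 32 ends was 11.8 in rif1Δ and 20.7 in WT, and 14 ends were higher in rif1Δ. Between 3 and 4 kb it was 0.25 in rif1Δ, with 67.8% of bins low, and 2.18 in WT, with 19.5% low. From 6 to 7 kb the median was 4.15 in rif1Δ and 2.93 in WT, and the means there were 17.9 in rif1Δ and 6.54 in WT. Farther in, steps low in both strains have no direction, since the lowest value is 0.25 in rif1Δ and 0.125 in WT. Among the ends above 1 in at least 1 strain, 9 of 26 were higher in rif1Δ at 1 to 2 kb, 11 of 27 at 3 to 4 kb and 15 of 26 at 6 to 7 kb. Farther in, 18 of 25 were higher in rif1Δ at 7 to 8 kb, 16 of 20 at 10 to 11 kb and 25 of 28 at 17 to 18 kb. The share of higher windows over all nuclear 1 kb windows was not computed, but their median log2 ratio was -0.018. The share of low bins at 19 to 20 kb was 10.2% in rif1Δ and 17.8% in WT. The 20 kb limit of the regions marked no step in the medians: the median was 3.52 in rif1Δ and 2.72 in WT just inside it, and 3.30 in rif1Δ and 2.72 in WT in the next 1 kb.

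**Figure D3:**
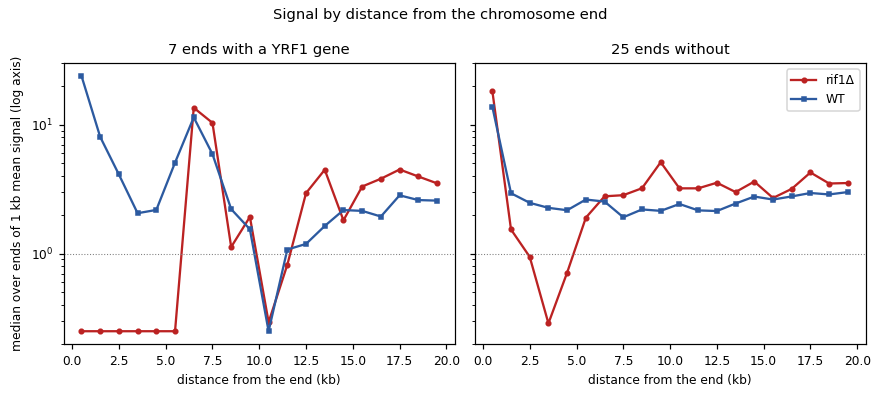
Median over ends of the 1 kb mean signal (vertical axis, log scale) against distance from the end in kb, for rif1Δ in red and WT in blue, with the 7 ends that carry a YRF1 gene on the left and the other 25 on the right. The dotted line marks a signal of 1. With YRF1, the outer 1 kb is at 0.25 in rif1Δ and 23.9 in WT. Without it, the outer 1 kb is at 18.4 in rif1Δ and 13.8 in WT. The step at 3 to 4 kb is then at 0.29 in rif1Δ and 2.26 in WT. The split follows the reference gene names alone.

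Counted in 1 kb steps, 158 of the 640 windows at the ends (24.7%) were more than 2-fold higher in rif1Δ, against 6.25% of all nuclear 1 kb windows. A further 102 (15.9%) were more than 2-fold lower, against 7.72% of nuclear windows. All but 1 of these 102 held a low bin, and leaving out low bins also takes out windows that fell to 1 or less in rif1Δ, so the next counts are a description of what was left. Among the 309 windows at the ends with no low bin in either strain, 131 were more than 2-fold higher and 1 was more than 2-fold lower. Outside the ends, the 10696 windows with no low bin gave 575 higher and 615 lower.

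Peaks were taken as runs of bins at 20 or more, with runs within 1 kb of each other joined. In rif1Δ there were 47 peaks at 25 ends, 17 of them within 2 kb of the end and 30 farther in, at 21 ends. In WT there were 28 peaks at 24 ends, 23 of them within 2 kb of the end and only 5 farther in, at VR, XIIL and IIR with 1 each and at XIIR with 2. Peaks overlapping between strains numbered 17, of which 13 were within 2 kb of the end. Of the 30 inner peaks of rif1Δ, 26 had no WT peak at this height. At 9 of the 26, WT reached at least 10 within 500 bp of the summit, and the highest WT value at any of them was 17. No such share was computed over all nuclear peaks, so these counts cannot be set against the rest of the genome. The distances of the 30 inner rif1Δ peaks from the end were uneven. There was 1 between 2 and 5 kb, 11 between 5 and 8 kb and 5 between 8 and 12 kb. Another 4 lay between 12 and 16 kb and 9 between 16 and 20 kb. The highest bin of the end lay within 500 bp of the terminus at 28 ends in WT and at 15 ends in rif1Δ. A listed origin lay within 1 kb of the summit for 24 of the 30 inner rif1Δ peaks and 3 of the 5 inner WT peaks. The origin list came with the study and holds only origins with a peak called in these libraries, so a match is no independent support.

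XIL had the highest ratio of any end, 2.78, from a mean of 28.3 in rif1Δ and 3.26 in WT. It had a rif1Δ peak of 152 at 16375 bp, where WT had 3.62, and the unnamed origin beside it (15455 to 16165, over COS9) averaged 126 in rif1Δ and 4.06 in WT over the 1 kb around its midpoint, which is the measure used for every origin here. A lower inner peak of 31.9 in rif1Δ, at 8475 bp, lay at the unnamed origin over MCH2 (7397 to 9007), with 27.9 in rif1Δ and 2.45 in WT. The terminal origin (23 to 2746, over the seripauperin gene PAU16) had 3.40 in rif1Δ and 1.27 in WT, with 15 low WT bins. XIL thus carried 3 rif1Δ peaks, of which WT had only the terminal one.

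XVIR had the highest mean of all ends in rif1Δ, 45.1, against 7.36 in WT (ratio 2.46). A peak of 259 in rif1Δ stood at 5733 bp, where WT had 12.5. The unnamed origin there (940923 to 943157), next to the arsenite transporter gene ARR3, averaged 235 in rif1Δ and 10.9 in WT and was the highest listed origin of any end in rif1Δ. A second peak of 168 at 14683 bp lay at ARS1631, which averaged 146 in rif1Δ and 7.78 in WT. Between the terminus and these peaks, 79 bins were low in rif1Δ alone, over YPR202W, YPR203W and YPR204W. At the terminus the highest bin was 87.5 in rif1Δ and 59.4 in WT, yet the surrounding 500 bp on the inner side averaged 25.1 in rif1Δ and 42.9 in WT.

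IL, with no low bin, averaged 21.4 in rif1Δ and 3.52 in WT (ratio 2.31) and held 5 listed origins, the most of any end. ARS103, near SEO1, a gene for a putative permease, averaged 61.3 in rif1Δ and 2.58 in WT. The unnamed origin at 16855 to 17565 averaged 69.2 in rif1Δ and 3.12 in WT. ARS102 had 21.5 in rif1Δ and 3.56 in WT, ARS102.5 had 21.1 in rif1Δ and 2.46 in WT, and the unnamed origin at 9775 to 10485 had 15.5 in rif1Δ and 3.12 in WT. All 5 were higher in rif1Δ, and WT had no peak but the terminal one, of 28.1.

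XVL (20.9 in rif1Δ, 3.56 in WT, ratio 2.27) had 3 rif1Δ peaks, as XIL did, but no WT peak. Its highest WT bin, 18.5 at 175 bp, fell short of the height of 20. The unnamed origin at 9761 to 12672, over PAU20, averaged 59.5 in rif1Δ and 2.61 in WT. The one at 18367 to 20227, over ENB1, which encodes a siderophore transporter, averaged 61.3 in rif1Δ and 4.78 in WT. Its terminal origin (23 to 2646, over AAD15) averaged 16.01 in rif1Δ and 2.00 in WT, with 12 low WT bins.

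VIIL and IIR each held 1 listed origin, and their ratios were not computed without it. At VIIL (11.6 in rif1Δ, 2.37 in WT, ratio 1.90) a run of 8500 bp was low in both strains, and ARS700.5, with a summit at 17775 bp, averaged 77.6 in rif1Δ and 8.09 in WT. At IIR (29.2 in rif1Δ, 7.14 in WT, ratio 1.89) ARS229 averaged 228 in rif1Δ and 38.3 in WT. This was 1 of the few inner sites with a peak in WT too. The peak spanned 4850 bp in rif1Δ and 2200 bp in WT at a signal of 20 or more.

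VIR and VIL also had ratios above 1. At VIR (12.9 in rif1Δ, 3.38 in WT, ratio 1.66) ARS609 averaged 47.5 in rif1Δ and 3.25 in WT, with a rif1Δ summit of 72.8 at 13181 bp. At VIL (13.2 in rif1Δ, 3.68 in WT, ratio 1.60) ARS600.3 averaged 84.3 in rif1Δ and 3.32 in WT. The signal was still climbing at the inner limit of that end, where rif1Δ had 130 and WT 4.50. ARS600.4, whose midpoint is at 20248 bp and so just outside, averaged 154 in rif1Δ and 5.78 in WT. Nearer the terminus of VIL, ARS600.1 had 23.4 in rif1Δ and 7.97 in WT, and a peak without a listed origin within 1 kb stood at 4375 bp, where the 500 bp on either side averaged 37.7 in rif1Δ and 15.2 in WT.

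VL, VIIIL and VIIIR completed the ends with a ratio above 1, and all had strong terminal peaks in both strains. At VL (19.2 in rif1Δ, 7.12 in WT, ratio 1.32) the terminal peak was 122 in rif1Δ and 71.0 in WT. Farther in, ARS504.2 averaged 72.6 in rif1Δ and 2.98 in WT, ARS503 had 22.5 in rif1Δ and 8.71 in WT, and ARS504 had 8.03 in rif1Δ and 2.89 in WT. The unnamed origin over DLD3 (17067 to 19023) had 20.2 in rif1Δ and 5.58 in WT. VIIIL (18.4 in rif1Δ, 7.73 in WT, ratio 1.15) had the highest peak of any end in both strains, 356 in rif1Δ and 157 in WT at 25 bp. There ARS131n averaged 43.8 in rif1Δ and 6.21 in WT, and ARS802, over COS8, had 43.5 in rif1Δ and 2.35 in WT. VIIIR (14.3 in rif1Δ, 6.30 in WT, ratio 1.06) had near-equal terminal bins, 110.5 in rif1Δ and 113 in WT, while ARS824 averaged 115 in rif1Δ and 11.7 in WT. Much of VIIIR was low, with 172 bins low in rif1Δ only and 114 in both.

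**Figure D4:**
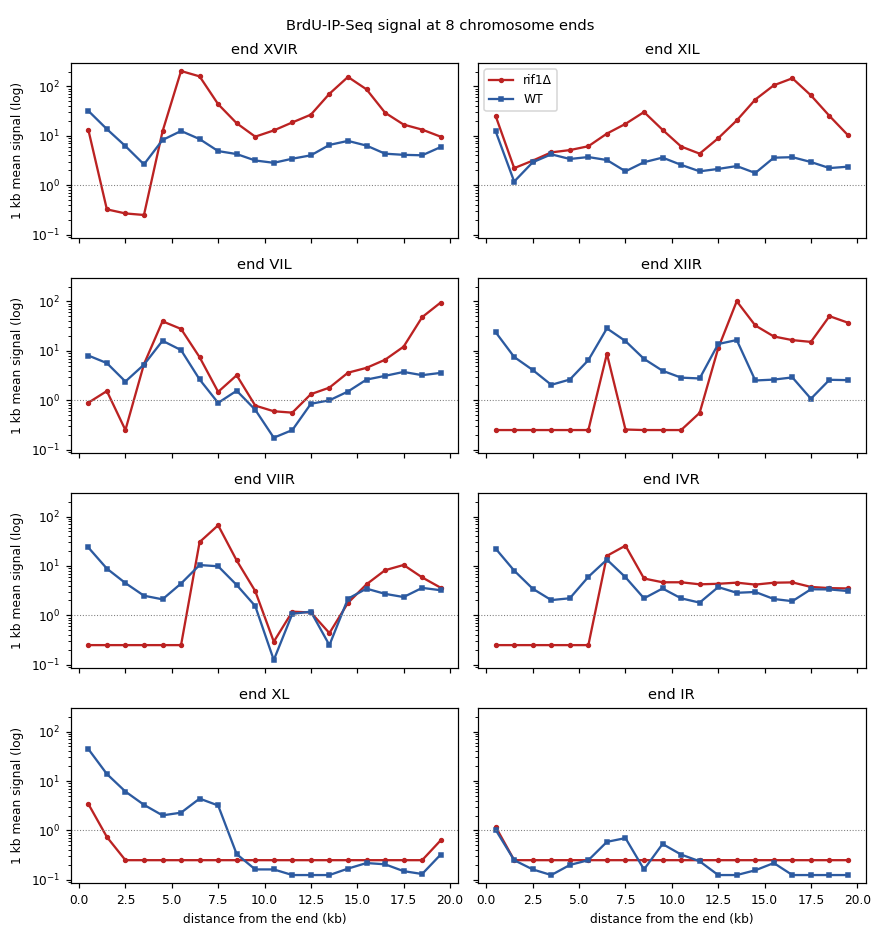
Mean signal in 1 kb steps (vertical axis, log scale) against distance from the end in kb at 8 ends, rif1Δ in red and WT in blue, with a dotted line at 1. XVIR, XIL and VIL show high rif1Δ peaks away from the terminus, XIIR, VIIR and IVR show rif1Δ at 0.25 over the outer 6 kb, XL shows it over nearly the whole end, and IR is low in both strains.

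The reference annotates YRF1, the Y′-element helicase gene, at 7 ends, namely YRF1-1 at IVR, YRF1-2 at VR, YRF1-3 at VIIR, YRF1-4 and YRF1-5 at XIIR, YRF1-6 at XIVL, YRF1-8 at XVR and YRF1-7 at XVIL. All 8 genes averaged between 0.25 and 0.277 in rif1Δ, and between 4.93 and 7.89 in WT. Over the outer 6 kb these ends averaged 0.655 in rif1Δ and 7.89 in WT, and all 7 were lower in rif1Δ. At IVR, VIIR, XIIR, XIVL and XVIL every bin of the outer 6 kb was low in rif1Δ and none was in WT. At XVR 113 of 121 bins were low in rif1Δ, and at VR 107 were. Ends without an annotated YRF1 gene could show the same. At IXL, XL and XIIIL 100, 101 and 97 of the 120 outer bins were low in rif1Δ only. Over the full 20 kb, bins low in rif1Δ only numbered 1091 at the 25 ends without YRF1 and 986 at the 7 with it. By the mean of the outer 6 kb, 19 of those 25 ends were higher in rif1Δ and 6 lower. Since YRF1 copies are near-identical, reads from any Y′ element can land on any of them, and their number in each strain was not measured. The deleted RIF1 gene averaged 0.433 in rif1Δ, while the median bin outside the ends was 3.50 in rif1Δ and 3.62 in WT. Whether the low Y′ bins reflect lost sequence, read placement or unreplicated sequence was not tested.

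Beyond 6 kb the same 7 ends were higher in rif1Δ without exception, with means of 8.97 in rif1Δ and 4.50 in WT. A rif1Δ peak lay close to the inner border of the stretches low in rif1Δ only at VIIR, VR, IVR, XIVL and XIIR, the last given further below. At VIIR (7.57 in rif1Δ, 4.66 in WT, ratio 0.60) it coincided with ARS131a, which averaged 75.7 in rif1Δ and 11.5 in WT. At VR (11.7 in rif1Δ, 11.4 in WT, ratio 0.035) it was ARS523, with 108 in rif1Δ and 62.2 in WT, the highest inner WT peak of any end. A broad unnamed origin at VR (559886 to 566886, over PUG1) had 4.53 in rif1Δ and 4.16 in WT. At IVR (4.77 in rif1Δ, 4.88 in WT, ratio -0.027) the peak of 36.5 in rif1Δ, against 11.1 in WT, at 6992 bp had no listed origin. At XIVL (2.48 in rif1Δ, 3.43 in WT, ratio -0.35) a peak of 28.2 in rif1Δ, against 13.9 in WT, lay within the unnamed origin over COS1 (6282 to 10914). The midpoint of that origin had 1.12 in rif1Δ and 0.25 in WT, with all 20 WT bins low.

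XIIR (14.8 in rif1Δ, 7.65 in WT, ratio 0.87), which holds YRF1-4 and YRF1-5 side by side, was low in rif1Δ over 221 bins that were above 1 in WT. WT had a peak of 33.9 at 6639 bp, between both genes, where rif1Δ had 11.8. Farther in, the unnamed origin over PAU4 (1062398 to 1065752) averaged 73.5 in rif1Δ and 5.17 in WT, and ARS1235 had 48.6 in rif1Δ and 2.55 in WT. XVR (2.70 in rif1Δ, 3.88 in WT, ratio -0.40) and XVIL (1.29 in rif1Δ, 2.76 in WT, ratio -0.71) held no listed origin. XVR had a terminal bin of 124 in rif1Δ and 84.6 in WT, although the 500 bp next to it averaged 29.2 in rif1Δ and 48.8 in WT. At its inner limit a rif1Δ peak of 21.6 began, against 2.12 in WT. XVIL had no rif1Δ peak, and its highest bin was 8.62 in rif1Δ and 30.9 in WT.

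IXL and XL had the lowest ratios, -1.68 and -1.81. The mean was 0.545 in rif1Δ and 3.95 in WT at IXL, and 0.453 in rif1Δ and 4.10 in WT at XL. Their WT signal came from the terminus, where the highest bin was 8.62 in rif1Δ and 67.6 in WT at IXL, and 5.50 in rif1Δ and 73.6 in WT at XL. In rif1Δ 370 of 400 bins at IXL and 374 of 400 at XL were low. Over the 400 bins the profiles of these ends correlated at r = 0.95 in rif1Δ and r = 0.99 in WT (Pearson, across bins of 1 column each, which are neighbours and not independent). Other pairs of ends were also alike in WT, such as XVR and XVIL, with r = 0.61 in rif1Δ and r = 0.935 in WT. IXL and XL may not amount to 2 separate observations, which was not tested. XIIIL (1.63 in rif1Δ, 3.93 in WT, ratio -0.91) had the same shape in its outer part, with 96 consecutive bins low in rif1Δ only over YML133C and a terminal WT peak of 36.8, against 4.12 in rif1Δ. At 9 to 10 kb it had 2.39 in rif1Δ and 2.12 in WT.

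XIIL (7.65 in rif1Δ, 8.06 in WT, ratio -0.067) combined both patterns. Its terminal bins reached 207 in rif1Δ and 111 in WT, and a peak at 5875 bp reached 58.1 in rif1Δ and 47.8 in WT. Between and beyond them lay rif1Δ-only low runs of 4450 bp over YLL067C and 4500 bp over YLL066C. The unnamed terminal origin (23 to 2077) had 0.744 in rif1Δ and 12.5 in WT at its midpoint, with 15 low rif1Δ bins, which made it the listed origin with the lowest ratio, -2.96. A further rif1Δ peak of 25.6 at 11625 bp, against 14.8 in WT, had no listed origin. IIL (13.3 in rif1Δ, 8.02 in WT, ratio 0.67) also had a rif1Δ-only low run, of 3300 bp, between its terminal peak and an inner peak. The terminal peak, at ARS200, was the highest WT origin of the ends, averaging 171 in rif1Δ and 84.6 in WT, and ARS201 averaged 40.1 in rif1Δ and 7.49 in WT.

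Ends IIIR and IXR sat just under a ratio of 1, both at 0.98. At IIIR (7.16 in rif1Δ, 3.15 in WT) ARS319 averaged 35.6 in rif1Δ and 4.86 in WT. The broad unnamed interval there (304363 to 311363, over ADH7, RDS1 and PAU3) was lower in rif1Δ at its midpoint, with 1.98 in rif1Δ and 3.23 in WT, although its highest bin was 17.6 in rif1Δ and 4.50 in WT. IXR (7.34 in rif1Δ, 3.23 in WT) had no listed origin and a terminal peak of 55.4 in rif1Δ and 25.2 in WT. It had no low bin in rif1Δ and 37 in WT. XIVR (2.88 in rif1Δ, 1.26 in WT, ratio 0.78) had 301 bins low in both strains, a terminal peak of 39.2 in rif1Δ and 46.2 in WT, and a rif1Δ peak of 23.5, against 2.62 in WT, at its inner limit beside ARS1429, whose midpoint lies just outside the end.

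The remaining 6 ends had ratios between 0.014 and 0.58. IIIL (5.01 in rif1Δ, 3.01 in WT, ratio 0.58) had a terminal peak of 30.9 in rif1Δ and 33.4 in WT, and ARS300 next to it averaged 11.0 in rif1Δ and 5.79 in WT. Farther in, its steps at 14 to 15, 15 to 16 and 16 to 17 kb had 12.0, 17.7 and 10.7 in rif1Δ, against 2.77, 3.57 and 3.33 in WT, a rise below the height of a peak. XIR (4.70 in rif1Δ, 2.83 in WT, ratio 0.57) had a terminal peak of 45.4 in rif1Δ and 36.0 in WT, 11.4 in rif1Δ and 3.06 in WT at 1 to 2 kb, and no listed origin. XIIIR (3.63 in rif1Δ, 2.87 in WT, ratio 0.26) was low in both strains over 126 bins and had a rif1Δ peak of 20.4 at 7791 bp, against 9.50 in WT. XR (1.77 in rif1Δ, 1.33 in WT, ratio 0.24), IVL (0.990 in rif1Δ, 0.882 in WT, ratio 0.080) and IR (0.299 in rif1Δ, 0.286 in WT, ratio 0.014) were low in both strains over 279, 311 and 398 bins.

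Across all ends the list held 37 origins at 19 ends, 22 with an ARS name and 15 without. Their median signal was 43.8 in rif1Δ and 4.16 in WT, and their median log2 ratio was 2.63, with a range of -2.96 to 4.64. The signal was higher in rif1Δ at 35 of them, the exceptions being the unnamed intervals at IIIR and XIIL given above. The 35 include the unnamed origin at VR, with 4.53 in rif1Δ and 4.16 in WT. They also include the one at XIVL, with 1.12 in rif1Δ and 0.25 in WT, where all 20 WT bins were low. The share of higher origins over all chromosomes was not computed. A ratio above 1 was seen at 30, or at 29 of the 33 with no low bin, against 41.8% of the 392 listed origins of all chromosomes. Origins 10 to 20 kb from the end had medians of 69.2 in rif1Δ and 4.06 in WT (n = 15), and those within 10 kb had 25.7 in rif1Δ and 5.32 in WT (n = 22). The highest ratio, 4.64, was that of the unnamed origin over COS9 at XIL, followed by the unnamed origin at XVIR (4.31) and ARS600.3 (4.30). The study's list puts 31 of the 37 in the class repressed and 6 in the class unregulated, classes called from these same libraries, so that their different ratios are no separate finding. The 6 were ARS200, ARS300, ARS523 and the unnamed origins at VR, XIIL and XIVL.

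Ends with a listed origin (n = 19) had a median ratio of 1.15, and ends with none (n = 13) had 0.014. All 11 ends with a ratio above 1 were among the 19. The list holds only origins with a peak called in these libraries, so this split is no independent support. By the rule that an origin's midpoint lie within 20 kb of the end, the 13 ends with no listed origin were IR, IVL, IVR, IXL, IXR, XL, XR, XIR, XIIIL, XIIIR, XIVR, XVR and XVIL. Of these, only IVR, XIIIR, XIVR and XVR had an inner peak in rif1Δ. The mean in rif1Δ was at most 1 at 4 of the others, namely IR, IVL, IXL and XL.

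The ends overlap 259 annotated genes. A mean of 1 or less in rif1Δ but not in WT was seen for 32 of them (12.4%), against 2.35% of the 6431 nuclear genes, and YRF1 made up 8 of the 32. The reverse, 1 or less in WT only, was seen for 19 (7.34%), against 0.482% of nuclear genes. A mean of 1 or less in both strains was seen for 59 (22.8%), against 1.76% of nuclear genes. Of the 19 PAU genes, which encode cell wall mannoproteins, 9 were low in both strains, and 9 were above 1 in both, up to 28.4 in rif1Δ and 3.95 in WT. The 11 COS genes, a family found mainly near telomeres, included 4 low in both, 3 low in WT only and COS9, next to the XIL origin, at 83.0 in rif1Δ. Of the 5 HXT hexose transporter genes 3 were low in both. All 3 SNO and both SNZ genes, of pyridoxine synthesis, were low in both. The 6 AAD genes, for putative aryl-alcohol dehydrogenases, were above 1 in rif1Δ without exception and had medians of 4.82 in rif1Δ and 1.93 in WT. Of the 6 MAL genes of maltose use, 4 were above 1 in both strains, MAL12 was low in both (0.596 in rif1Δ, 0.507 in WT) and MAL32 was low in rif1Δ only (0.964 in rif1Δ, 1.38 in WT), while MAL33, beside ARS229, had 106 in rif1Δ and 22.7 in WT. IMD2, which encodes an IMP dehydrogenase and lies beside ARS824 at VIIIR, had 58.1 in rif1Δ and 4.18 in WT, and SEO1 had 49.95 in rif1Δ and 2.53 in WT. Over all 259 genes the median was 2.39 in rif1Δ and 2.51 in WT.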

How the data were processed

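The libraries were 2 of rif1Δ and 2 of WT. According to the study's methods, the authors split reads with FASTX, trimmed them, aligned them with Bowtie2 to build R64 and counted coverage in 50 bp bins with bedtools. The deposited signal values are that coverage after median smoothing over 1 kb, quantile normalization between replicates, averaging over both replicates and a second smoothing. The scaling between strains and the treatment of reads with several matches are not given in the sources used here. Depth per library is unknown, since the signal is no longer a count, so no counting interval was computed. The signal rises in fixed steps and is never 0.

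Each end was taken as the bins within 20000 bp of a chromosome's start or last bin, in Python 3.11.15 with numpy 2.4.6, pandas 2.3.3 and matplotlib 3.10.9. The mitochondrial bins were left out. Ratios are log2 of (rif1Δ + 1)/(WT + 1). Peaks are runs of bins at 20 or more, joined within 1 kb, with the middle of tied highest bins as summit, and a peak was matched to an origin within 1000 bp of its listed interval. Windows of 20 kb outside the ends gave the background. Names and positions of origins came from the list that accompanied the study, and genes from RefSeq's R64 table. Genes and origins were named by rule, namely every listed origin at an end, the 10 highest rif1Δ and 5 highest WT peaks, the 5 highest and 5 lowest ends by ratio and the longest low runs. The other ends and peaks, HMLALPHA1, HMLALPHA2 and the runs over them were named after their values were seen. The scripts were tested on simulated peaks and low runs. No sequence is printed and no origin motif was searched, because no genome was used here.

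The ends, lists and thresholds were chosen with earlier results of these data known. With 1 column per strain no test was possible. Alternatives changed the window, pseudocount, limit of low bins, peak height, scaling and matching distance.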

Additional observations from a re-analysis of the deposited data

How the results depend on the processing

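Of 90 alternative values for 20 results, 69 kept the direction and stayed within 1.5 times the count, mean or share (or, for medians, within the distribution-free 95% interval of the median over ends or origins), 18 moved further and 3 turned sign. Leaving out bins at 1 or less in either strain gave a mean of the 32 end means of 16.3 in rif1Δ and 8.44 in WT. That mean gives each end equal weight, also IXL and XL, with 20 and 19 bins left and WT means of 43.5 and 45.7. Pooled over the 7158 bins left, the means were 18.3 in rif1Δ and 5.95 in WT. The median ratio of the ends, 0.63, was 0.14 from median bins and 0.23 with a pseudocount of 10. With that pseudocount 5 ends had a ratio above 1, the median ratio of listed origins was 1.62, and 71 windows of 1 kb were higher and 14 lower in rif1Δ. A 3-fold limit gave 102 higher and 65 lower windows, and leaving out low bins gave 14 lower ones. With a limit of 0 the share of low bins was 0 in rif1Δ and 0 in WT, and the bins low in rif1Δ only and in WT only were 0 and 0, since the lowest values are above it. WT had 43 peaks at a height of at least 10, on 30 ends, and 14 at 40, on 13 ends, and 4 ends had a WT peak once the outermost 2 kb were left out. The median ratio of the ends with a YRF1 gene, -0.027, was -0.78 in 10 kb windows, and positive at 0.49 in 30 kb windows, at 0.63 without low bins and at 0.27 without the outermost 2 kb, settings that leave out or dilute the low stretch at the terminus. Scaling rif1Δ by 1.07, to the WT mean outside the ends, shifts every log2 value by at most 0.099 and gives 26 ends higher in rif1Δ and 13 with a ratio above 1. Leaving out ends that were mostly low, or ends with a YRF1 gene, were alternatives chosen after seeing the data, with median ratios of 0.98 in both cases. No paired analysis was possible because the deposited columns are means over replicates, and for the same reason no replicate could be left out.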
